A study of Homo sapiens with 18 samples.

Results

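The first transcripts lost from NAT10-depleted human embryonic stem cells were read from 6 of the 18 libraries of the series: 3 taken 1.5 h after actinomycin D was added to cells with the NAT10 shRNA (NAT10-KD 1.5 h) and 3 taken at 0 h (NAT10-KD 0 h). All 6 came from H1, an established human embryonic stem cell line, and both groups carried the same lentiviral NAT10 shRNA with a GFP marker and puromycin selection, so the groups differ only in the time under the block. The other 12 libraries were NAT10-KD at 3.5 h and CTL cells (a negative control shRNA) at 0, 1.5 and 3.5 h, and they enter the shared estimate of spread and the comparison with control decay. Polyadenylated RNA was sequenced, and the authors deposited a read count per gene and per ERCC spike-in transcript. The 6 libraries held 15213546 to 15346230 counts, of which 0.150% to 0.295% were ERCC. The labels do not state whether replicates were grown apart; the p-values below therefore reflect spread between libraries that may be technical.

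Actinomycin D intercalates into DNA and stops RNA polymerases, so that the level of each transcript afterwards follows its decay. In animal cells decay usually starts with shortening of the poly(A) tail and goes on with decapping or degradation by the exosome, and transcripts of transcription factors, signalling feedback inhibitors and immediate early genes are known to be among the shortest-lived, while those of ribosomal proteins and metabolic enzymes last longest. NAT10 is the acetyltransferase that makes N4-acetylcytidine in ribosomal RNA and transfer RNA and has been described to place it in messenger RNA. All 34 core pluripotency genes, which mark the labelled cell type, passed the count filter, and their summed level was 12954 to 13175 CPM at 1.5 h and 13061 to 13443 CPM at 0 h. CPM is a count relative to the TMM-scaled library total. Some markers of other cell types were also present. The 14 of 18 fibroblast and stroma genes that passed the count filter summed to 2168 to 2302 CPM at 1.5 h and 1604 to 2134 CPM at 0 h, with FAP and LUM at 0 in all 6. Of 24 neural ectoderm genes 14 did not pass, HES5 at 0 among them. The 10 that passed summed to 1292 to 1420 CPM at 1.5 h and 1200 to 1268 CPM at 0 h. Of mesoderm, definitive endoderm and trophoblast genes 3 of 13, 2 of 14 and 2 of 15 passed. Their sums reached at most 132, 42.3 and 10.1 CPM. The part of such cells in the results below was not tested.

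NAT10 itself (ENSG00000135372, chromosome 11, 34105602 to 34147670, GRCh38) stood at 18.8, 18.8 and 17.2 CPM in the NAT10-KD 1.5 h libraries and at 20.4, 21.2 and 24.1 CPM in the NAT10-KD 0 h libraries, against 223 to 233 CPM in CTL 1.5 h and 209 to 211 CPM in CTL 0 h. The knockdown is thus seen in every library used. What transcript remained fell further under the block, to 57.8 ± 6.54% of its 0 h level (SD, n = 3; log2 change -0.79 ± 0.21 under ERCC scaling, adjusted p = 0.00142). Under TMM scaling the change was -0.26 (adjusted p = 0.0128), a call lost without replicate 3 at 0 h or at 1.5 h (adjusted p = 0.0921 and 0.0797).

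The library of NAT10-KD 0 h replicate 1 stood apart, and results are given with and without it. Its counts differed from those of replicates 2 and 3 by a chi-square of 14.5 and 20.7 per degree of freedom, against 2.09 between replicates 2 and 3 and 1.45 to 3.14 among the 1.5 h libraries. The difference ran along GC content. Between the 20% of protein-coding genes richest in GC and the 20% poorest in it, the median log2 deviation from the mean of the 6 libraries differed by -0.48 in replicate 1 at 0 h, by 0.20 and 0.33 in replicates 2 and 3 at 0 h, and by -0.07, 0.12 and -0.09 in the 1.5 h libraries. Under TMM scaling with all 6 libraries, the median log2 change at 1.5 h was 0.02 in the richest 20% and 0.05 in the poorest. Without replicate 1 at 0 h it was -0.10 and 0.18, and 20.6% and 4.49% of these genes were called lower. Results without that replicate therefore also differ along GC content. Relative to its total, replicate 1 held more of HPRT1 (64.7 CPM, against 40.6 and 41.2 CPM in replicates 2 and 3) and less of NUBP2 (37.5 CPM, against 60.0 and 71.7 CPM). Both were picked, after their values were seen, from the genes that differed most.

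Total polyadenylated RNA per spike-in was lower after 1.5 h of actinomycin D. Summed gene counts per ERCC count were 417, 338 and 455 in NAT10-KD 1.5 h and 665, 512 and 473 in NAT10-KD 0 h, with replicate 1 as the highest. The 1.5 h values all lay below the 0 h values, the closest pair being 455 and 473. The mean at 1.5 h was 73.3% of that at 0 h (p = 0.1 by an exact permutation test, two-sided, a design of 3 against 3 reaching no lower value), and 81.8% without replicate 1 at 0 h. In CTL cells the corresponding value was 66.3% (p = 0.1, exact). Because the ERCC RNA was added after the RNA had been purified, a smaller ratio from fewer cells and one from less RNA per cell cannot be told apart.

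**Figure D1:**
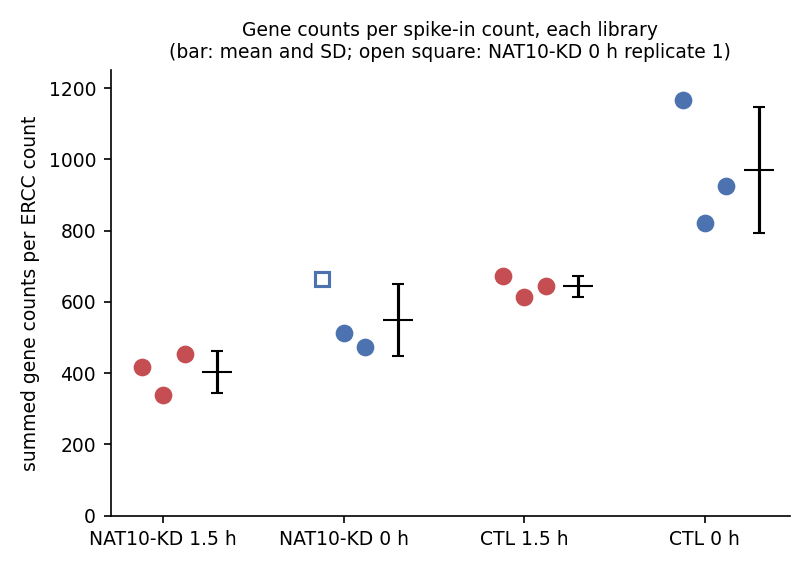
Summed gene counts per ERCC count (vertical axis, from 0) in each library of 4 groups, with 1 point per library and a bar for the mean and SD of 3 libraries. The NAT10-KD 1.5 h libraries (338 to 455) lie below the NAT10-KD 0 h libraries (473 to 665), and replicate 1 at 0 h (open square, 665) is the highest of the knockdown libraries shown.

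Scaled to the spike-in, 7941 of 16760 genes (47.4%) were lower at 1.5 h and 6 (0.0358%) were higher (edgeR quasi-likelihood test, adjusted p under 0.05). The median gene was left at 70.6% of its 0 h level, with the middle 50% of genes between 61.9% and 77.5%. The median log2 change was -0.50, and -0.36 without replicate 1 at 0 h. At this time 1148 genes were left at under 50% (577 without replicate 1 at 0 h). Without replicate 1 at 0 h the counts were 2942 lower (17.2% of 17067 genes) and 12 higher (0.0703%). The lower genes shared by both fits were 99.2% of those 2942 but 36.7% of the 7941. Other libraries moved the count as well, to 2065 without NAT10-KD 1.5 h replicate 2 and 5169 without NAT10-KD 1.5 h replicate 1. The count of 6 higher genes became 3 without NAT10-KD 0 h replicate 2 and 2 without NAT10-KD 1.5 h replicate 3. The fitted loss was slower early than late, a difference that was not tested. The median slope was -0.33 per hour on the log2 scale from 0 to 1.5 h and -0.49 per hour from 1.5 to 3.5 h, both scaled to ERCC, and 83.7% of genes had the steeper slope late. All genes of a library share its ERCC scale, so they are not separate evidence. Both slopes use the same 1.5 h libraries, so an error in their ERCC counts moves the slopes in opposite directions. By 3.5 h the median gene was left at 35.9%.

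TMM scaling sets each gene against the typical transcript and removes the common loss. On that scale 1349 genes (8.05%) were lower at 1.5 h and 1500 (8.95%) higher, with a median change of 0.03, and all 1349 were also lower under ERCC scaling. A gene higher on this scale was lost more slowly than the typical transcript, and need not have increased. Of the 1500 relative rises 0 were called lower under ERCC scaling. Without replicate 1 at 0 h there were 1833 lower (10.7%) and 2952 higher (17.3%). The lower genes shared by both fits numbered 1166, which is 86.4% of the 1349 and 63.6% of the 1833. The shared higher genes numbered 1407, or 93.8% of the 1500 and 47.7% of the 2952. The higher count was 980 without NAT10-KD 0 h replicate 2, 847 without NAT10-KD 1.5 h replicate 1 and 958 without NAT10-KD 1.5 h replicate 3. With a smooth curve of GC content fitted in each library (chosen after seeing the data), 2163 were lower and 3150 higher with replicate 1, and 1804 and 3577 without it.

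The steepest early loss was that of 16 transcripts left at 17.4% to 35.5% of their 0 h level, the largest falls under ERCC scaling among genes of at least 5 CPM whose 1.5 h and 0 h values did not overlap. All 16 also fell under TMM scaling, and all 16 passed the test under both scalings with any 1 of the 6 libraries left out, replicate 1 at 0 h included. Because the 16 were picked as the largest falls in these same libraries, this is not separate support. In the following, the percentage left is the count per summed ERCC count, relative to the mean of the 3 NAT10-KD 0 h libraries. Replicate 1 at 0 h is part of that mean. Without it MARS2 was left at 42.1% (34.2% with it) and NANOG at 48.9% (39.7%), but HPS6 at 25.2% (26.3%).

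Some of these transcripts hold, in the 3′ untranslated region, sequence elements that are known to bind decay factors, and they are shown so that a reader can see the motifs beside the values. TTATTTATT is the AU-rich nonamer, and TGTANATA is the element bound by Pumilio proteins. Both were searched on the transcript strand only. The windows below are 30 bases of GENCODE transcripts (GRCh38), with the motif in capitals; CHAC1 was searched for both and holds the first at chr15:40955959-40955988 (+), FOXO1 the second at chr13:40558809-40558838 (-), the first of 4 places, and DNAJB1, MARS2, IRF2BP1 and PLPP6 the second at chr19:14515016-14515045 (-), chr2:197708147-197708176 (+), chr19:45883898-45883927 (-) and chr9:4663654-4663683 (+).
CHAC1: acttgaaactTTATTTATTgcaccatgttg
FOXO1: ttatgtgctgcTGTAGATAaggactgtgcc
DNAJB1: tgtggaacgtcTGTAAATAtgtttttataa
MARS2: atttaaaaattTGTAAATAgttcaaaaggg
IRF2BP1: acctctatctgTGTACATActcccttcttc
PLPP6: gatgttcattcTGTAAATAtacatgcagac
Of 13796 protein-coding genes tested, 8.4% held TTATTTATT and 27.1% TGTANATA. Among the 15 protein-coding transcripts of the 16, 1 held the first and 6 the second, of which 5 are shown. Such a match is a description of the letters in these windows. Over all genes the direction in which the change went with the number of TGTANATA matches turned when replicate 1 at 0 h was left out. The median TMM-scaled log2 change was -0.03 for genes with 3 or more matches and 0.05 for genes with 0, and without replicate 1 it was 0.06 and 0.03. For TTATTTATT the medians were -0.02 with 3 or more matches and 0.04 with 0, and without replicate 1 they were 0.03 for both.

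CHAC1, an enzyme that degrades glutathione and a known target of the integrated stress response (chromosome 15, 40952962 to 40956519), fell furthest. It was left at 14.2%, 17.5% and 20.5% in the 1.5 h libraries, against 104%, 91.1% and 105% in the 0 h libraries, with 25, 38 and 33 counts at 1.5 h and 114, 131 and 163 at 0 h. The log2 change was -2.52 ± 0.26 (SE, adjusted p = 2.96e-18), and -2.50 without replicate 1 at 0 h. At 3.5 h the transcript was left at 16.7 ± 4.1%, and the log2 change between 1.5 and 3.5 h was -0.07 (adjusted p = 0.81). BTG2, an antiproliferative p53 target that binds the CCR4-NOT deadenylase (chromosome 1, 203305491 to 203309602), was left at 20.9%, 21.6% and 25.3% at 1.5 h, against 119%, 99.0% and 81.9% at 0 h. Its log2 change was -2.14 ± 0.24 (adjusted p = 8.21e-16), and it went on falling, to 9.68 ± 2.4% at 3.5 h.

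HPS6, a subunit of a complex for lysosome-related organelles, is made from a single exon (chromosome 10, 102065390 to 102068038). It was left at 27.1%, 27.0% and 24.7% at 1.5 h, against 91.5%, 97.6% and 111% at 0 h (log2 change -1.93 ± 0.24, adjusted p = 6.51e-12). No 1.5 h library came near a 0 h library. FOXO1, a forkhead transcription factor held back by insulin signalling (chromosome 13, 40469953 to 40666597), was left at 34.0%, 26.0% and 36.3% at 1.5 h, against 126%, 89.5% and 84.6% at 0 h (log2 change -1.64 ± 0.21, adjusted p = 9.46e-12). TENT5B, which is held to add adenosines to RNA tails and lies on chromosome 1 (27005020 to 27012836), was left at 34.6%, 28.8% and 35.9% at 1.5 h, against 97.1%, 102% and 101% at 0 h. It had the highest level of the 16, at 42.3 ± 1.67 CPM at 1.5 h and 89.9 ± 17.1 CPM at 0 h (SD, n = 3 each). DNAJB1, a cochaperone of HSP70 (chromosome 19, 14514770 to 14529770), was left at 33.3%, 29.9% and 38.9% at 1.5 h, against 112%, 90.0% and 97.8% at 0 h.

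The other 10 were left at 34.2% to 35.5%. DUSP5, a nuclear phosphatase that switches off ERK (chromosome 10, 110497838 to 110511544), was left at 41.3%, 25.3% and 37.0% at 1.5 h, against 113%, 100.5% and 86.3% at 0 h. ARC, an immediate early gene of neuronal activity, was left at 34.5%, 36.4% and 33.9% at 1.5 h, against 103%, 96.0% and 101% at 0 h. MARS2, the mitochondrial methionyl-tRNA synthetase (chromosome 2, 197705369 to 197708387), and DDX28, a mitochondrial DEAD-box helicase of ribosome assembly (chromosome 16, 68021274 to 68023442), were left at 34.2 ± 5.96% and 34.9 ± 7.21%. IRF2BP1, a corepressor that binds IRF2, and PLPP6, a lipid phosphatase, were left at 35.2 ± 3.48% and 35.0 ± 3.77%. The remainder were JRK, AP5B1 (a subunit of the adaptor complex AP-5), ARMC5 and the long noncoding RNA GABPB1-AS1, whose counts could hold reads of GABPB1 since the strand setting of the counting is not given in the sources used here. In the authors' deposited table of half-lives, TENT5B had 0.951 h, FOXO1 0.969 h, IRF2BP1 0.994 h and ARMC5 1.10 h in knockdown cells, where the median of the tested genes listed was 2.56 h. DNAJB1, MARS2, GABPB1-AS1 and PLPP6 lay between TENT5B and ARMC5. CHAC1, BTG2, HPS6, JRK, DUSP5, DDX28, ARC and AP5B1 had no value there. These half-lives describe decay in knockdown cells of the same series, so they are not separate evidence.

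**Figure D2:**
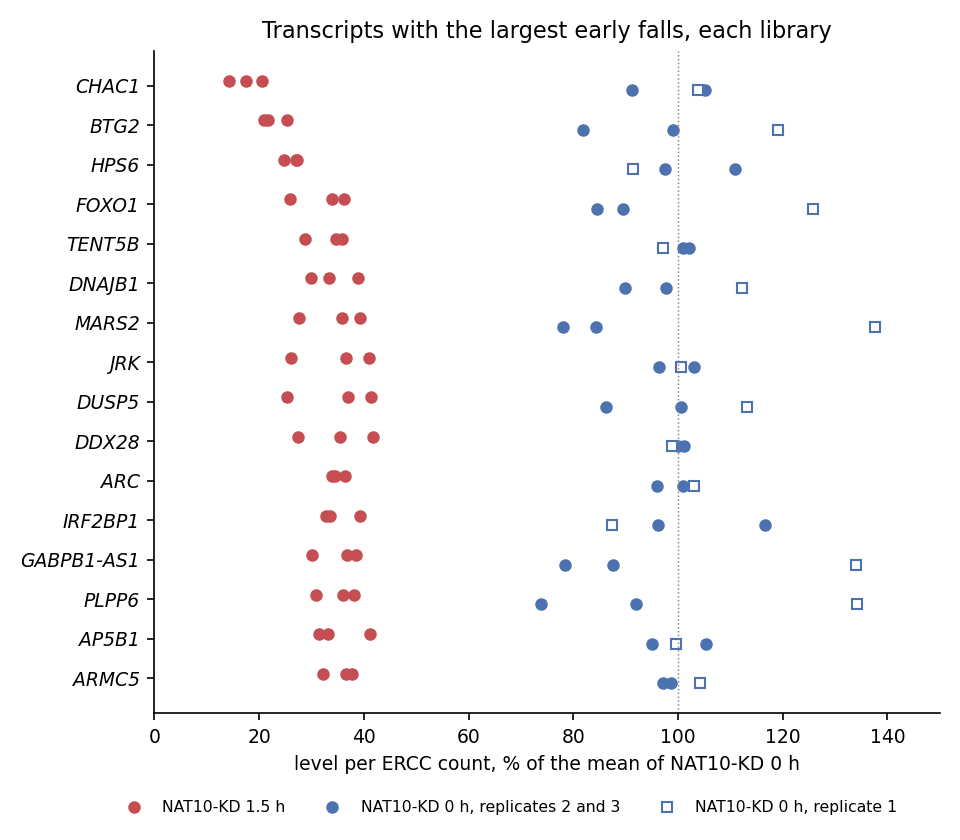
Level per ERCC count as a percentage of the NAT10-KD 0 h mean (horizontal axis) for the 16 largest early falls, with 1 point per library. The 1.5 h libraries (upper points of each row) lie between 14.2% and 41.8%, and the 0 h libraries (lower points; open squares, replicate 1) lie to the right of them for every gene.

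Of 38 SOX, FOX and homeobox factors 31 fell under ERCC scaling and 22 without replicate 1 at 0 h. Of all genes 47.4% fell under this scaling, and 17.2% without that replicate, the shares against which each later count under ERCC scaling is to be read. Under TMM scaling 17 fell and 0 rose (8.05% and 8.95% of all genes), with a median log2 change of -0.31, and leaving out any 1 library gave 15 to 17 falls. When replicate 1 at 0 h was left out 1 of the 38 rose, and of all genes 10.7% fell and 17.3% rose. Each later count under TMM scaling is to be read against these shares of all genes, 8.05% and 8.95% with all libraries. SOX4, a single-exon factor of progenitor cells, was left at 45.3%, 34.0% and 47.8% at 1.5 h, against 131%, 90.2% and 78.4% at 0 h (log2 change -1.24 ± 0.20, adjusted p = 1.99e-07). The homeobox factor ADNP was left at 43.5 ± 8.2%. Of 19 feedback genes of BMP, TGF-beta and Nodal signalling 16 fell under ERCC scaling (9 without NAT10-KD 1.5 h replicate 2, and 11 without replicate 1 at 0 h). Under TMM scaling 9 fell and 0 rose, with a median of -0.31 and 7 to 10 falls when 1 library was left out. The inhibitor of DNA binding ID3 was left at 37.0 ± 2.9% and the Nodal antagonist LEFTY1 at 35.5 ± 3.4%. The corepressor TGIF2 was left at 47.5 ± 8.7%. Of 449 numbered C2H2 zinc finger genes, a family with many near-identical members, 103 fell and 2 rose under TMM scaling, with a median of -0.21. The falls were 105 and the rises 10 without replicate 1 at 0 h, where the list's median was -0.15, and 69 without NAT10-KD 1.5 h replicate 2. ZNF385A, ZNF579 and ZNF48 were left at 35.7 ± 4.6%, 38.7 ± 3.7% and 40.1 ± 5.0%.

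Immediate early and AU-rich transcripts, whose 3′ ends are classical decay signals, were lower in 27 of 40 cases under ERCC scaling (19 without replicate 1 at 0 h, and 17 without NAT10-KD 1.5 h replicate 2). Under TMM scaling 11 fell and 0 rose, with a median of -0.15 and 9 to 12 falls with 1 library left out. CCN2 and CCN1, secreted matricellular proteins, were left at 43.4%, 32.6% and 45.5% and at 48.9%, 38.3% and 50.2% at 1.5 h, against 121%, 92.2% and 86.9% and 121%, 92.0% and 86.7% at 0 h. JUN, a subunit of AP-1, had a log2 change of -0.67 under ERCC scaling (adjusted p = 0.00998), and EGR1 did not pass (-0.54, adjusted p = 0.295). JUN and EGR1 were chosen after their values were seen. Of 17 genes of ERK feedback 13 fell under ERCC scaling, but 7 without replicate 1 at 0 h and 4 without NAT10-KD 1.5 h replicate 2, and 2 fell and 0 rose under TMM scaling (5 falls and 1 rise without replicate 1 at 0 h, and 1 fall without replicate 3). The 2 falls of 17 lay near the 8.05% of all genes that fell under TMM scaling. FOSL1, an AP-1 subunit, was left at 51.7 ± 8.6% and the ERK phosphatase DUSP7 at 55.0 ± 5.9%.

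Targets of p53 were among the early losses too. Of 36 members 35 fell under ERCC scaling, 22 without replicate 1 at 0 h and 20 without NAT10-KD 1.5 h replicate 2. Under TMM scaling 18 fell and 0 rose, with a median of -0.25, and 15 to 19 fell with 1 library left out. There were 19 falls and 3 rises without replicate 1 at 0 h. PPM1D, the phosphatase that switches p53 off, was left at 39.4%, 26.0% and 43.1% at 1.5 h, against 123.2%, 89.5% and 87.3% at 0 h. TP53INP1, a p53-induced promoter of cell death, was left at 36.2 ± 9.6%. Among 19 genes of the BCL2 family, 4 fell under TMM scaling and 0 rose (3 and 3 without replicate 1 at 0 h), with a median of 0.01. MCL1, an inhibitor of apoptosis with a short-lived transcript and protein (chromosome 1, 150574551 to 150579738), was left at 41.2%, 31.4% and 45.1% at 1.5 h, against 128%, 92.4% and 79.1% at 0 h (log2 change -1.35 ± 0.20, adjusted p = 9.55e-09). The death activators BMF and BBC3 were left at 37.7 ± 2.4% and 50.2 ± 6.4%.

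Pluripotency factors differed among themselves. Of 34 members 12 fell and 3 rose under TMM scaling, with a median of -0.15, and 17 fell and 7 rose without replicate 1 at 0 h. Under ERCC scaling 30 fell, 18 without replicate 1 at 0 h and 14 without NAT10-KD 1.5 h replicate 2. NANOG (chromosome 12, 7787794 to 7799141), a homeobox factor of the pluripotent state, was left at 43.8%, 30.7% and 44.6% at 1.5 h, against 138%, 79.5% and 83.0% at 0 h. Its log2 change was -1.33 ± 0.21 (adjusted p = 8.14e-08), and -1.04 without replicate 1 at 0 h. PRDM14, a repressor of differentiation genes, was left at 41.2 ± 6.2%. SOX2 was left at 64.3%, 44.3% and 71.9% at 1.5 h, against 132%, 86.8% and 80.9% at 0 h, and fell by 0.73 ± 0.20 (adjusted p = 0.0024). That call was lost without replicate 1 at 0 h (-0.48, adjusted p = 0.0738) and without NAT10-KD 1.5 h replicate 2 (adjusted p = 0.073). POU5F1, the central factor of this state, which has processed pseudogenes, was left at 81.1%, 70.7% and 87.8% at 1.5 h, against 111%, 99.0% and 89.8% at 0 h. It did not pass under ERCC scaling (-0.32 ± 0.19, adjusted p = 0.13) and was higher under TMM scaling (0.20 ± 0.05, adjusted p = 0.00907).

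MYC was left at 84.8%, 67.8% and 86.4% at 1.5 h, against 122%, 99.7% and 78.3% at 0 h, so the groups overlapped, and its change did not pass (-0.32 ± 0.22, adjusted p = 0.173). ID1, an inhibitor of DNA binding induced by BMP, was left at 70.8%, 45.4% and 65.8% at 1.5 h, against 121%, 88.1% and 91.2% at 0 h (-0.72 ± 0.21, adjusted p = 0.00375, but adjusted p = 0.0847 without NAT10-KD 1.5 h replicate 2). ANP32B, a histone chaperone, did not pass under ERCC scaling (-0.28 ± 0.20, adjusted p = 0.199) and was higher under TMM scaling (0.26 ± 0.05, adjusted p = 0.00203), at 128 ± 7.64 CPM at 1.5 h and 107 ± 4.66 CPM at 0 h.

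Genes of RNA decay and RNA modification had medians near the 0.03 of all genes under TMM scaling, but more falls than rises. Of all genes 8.05% fell and 8.95% rose. Of 80 genes of mRNA decay 21 fell and 2 rose under TMM scaling, with a median of -0.03 (18 and 13 without replicate 1 at 0 h, and 12 falls without NAT10-KD 1.5 h replicate 1). YTHDF2, the reader of m6A that recruits CCR4-NOT (chromosome 1, 28736621 to 28769775), was left at 39.7%, 33.0% and 37.95% at 1.5 h, against 124%, 91.1% and 84.8% at 0 h (log2 change -1.44 ± 0.20, adjusted p = 1.96e-09). SMG8, a regulator of nonsense-mediated decay, was left at 38.1 ± 3.3%. Of 42 RNA modification enzymes 10 fell and 1 rose under TMM scaling, with a median of -0.05 (14 and 8 without replicate 1 at 0 h, and 6 falls without NAT10-KD 1.5 h replicate 2). TRMT10C, a subunit of mitochondrial RNase P, was left at 40.6 ± 6.0%. VIRMA and METTL3, subunits of the m6A writer, were left at 44.2 ± 6.1% and 52.5 ± 8.1%. Of 68 chromatin regulators 22 fell and 4 rose under TMM scaling, with a median of -0.05 (27 and 11 without replicate 1 at 0 h). The histone acetyltransferase KAT6A was left at 38.9 ± 6.3%, the remodeller CHD1 at 46.2 ± 7.7% and the BAF subunit ARID1A at 47.8 ± 7.4%.

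Ubiquitin ligases and SOCS genes had 9 falls and 0 rises of 39 under TMM scaling (7 and 4 without replicate 1 at 0 h, and 6 falls without NAT10-KD 1.5 h replicate 2), with RNF139, FBXO5 and FBXO33 left at 39.1 ± 5.9%, 39.7 ± 7.2% and 43.9 ± 5.4%. KLF and SP factors had 4 falls and 0 rises of 17 (1 fall without NAT10-KD 1.5 h replicate 1), and SP1, a general activator of GC-rich promoters, was left at 50.2 ± 9.1%. WNT and Notch feedback genes had 2 falls and 1 rise of 18 (3 falls without replicate 1 at 0 h), with the WNT receptors FZD5 and FZD7 left at 41.2 ± 5.8% and 54.3 ± 8.3%. Of 18 circadian clock genes 2 fell and 0 rose (5 falls and 1 rise without replicate 1 at 0 h, and 1 fall without replicate 3), and the clock repressor PER1 was left at 46.1 ± 7.1%. The 2 falls of 18 among WNT and Notch feedback genes and among clock genes lay near the 8.05% of all genes.

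Of 86 ribosome biogenesis genes 16 fell and 2 rose under TMM scaling (24 and 14 without replicate 1 at 0 h), with a median of -0.05, and 72 fell under ERCC scaling (27 without replicate 1 at 0 h). BYSL, a factor of small-subunit maturation, and POLR1B, a subunit of RNA polymerase I, were left at 47.3 ± 6.4% and 48.2 ± 9.0%. Of 48 DNA replication genes 3 fell and 1 rose (8 and 7 without replicate 1 at 0 h, and 1 fall without NAT10-KD 1.5 h replicate 1). With all libraries these counts lay under the shares of all genes, 8.05% lower and 8.95% higher. Their median was -0.03 under TMM scaling, against 0.03 for all genes. Under ERCC scaling 42 of the 48 fell (11 without replicate 1 at 0 h, and 6 without NAT10-KD 1.5 h replicate 2). The replication factors MCM10 and CDT1 were left at 55.7 ± 8.7% and 56.5 ± 3.5%. Of 42 mitosis genes 2 fell and 6 rose (17 rises without replicate 1 at 0 h and 2 without replicate 2, and 4 falls without replicate 3), and the kinase AURKA was left at 54.3 ± 11%. Of 34 cyclins, CDKs and inhibitors 8 fell and 4 rose (9 rises without replicate 1 at 0 h), with the phosphatase CDC25A left at 52.6 ± 7.5%. The unfolded protein and integrated stress response was divided, with 5 falls and 7 rises of 35 (8 falls without replicate 1 at 0 h and 3 rises without NAT10-KD 1.5 h replicate 1). Besides CHAC1, the sestrin SESN2 was left at 47.3 ± 4.7% and the stress factor ATF3 at 49.0 ± 12%.

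**Figure D3:**
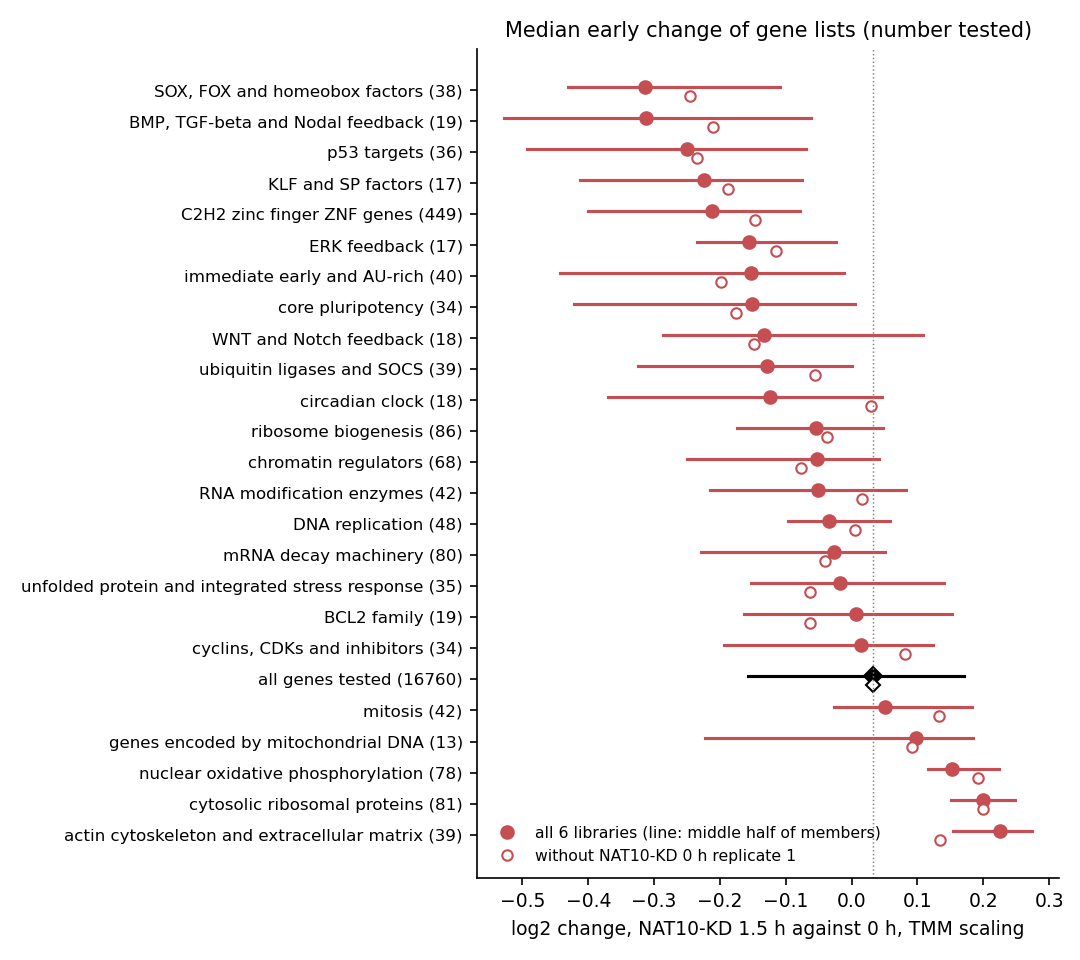
Median log2 change of NAT10-KD 1.5 h against 0 h under TMM scaling (horizontal axis) for 24 gene lists and all genes tested, with the middle 50% of members as lines and the medians without NAT10-KD 0 h replicate 1 as open symbols. SOX, FOX and homeobox factors (-0.31) lie furthest to the lower side and the actin and extracellular matrix list (0.23) furthest to the higher side of the median of all genes (0.03).

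The transcripts of the ribosome itself were among those that lasted. Among 81 genes for proteins of the cytosolic ribosome, whose pseudogenes can share reads, 50 rose and 0 fell under TMM scaling, with a median of 0.20, and 44 to 61 rose with 1 library left out. The lowest change of the 81 was 0.00. Their summed level was 45008 to 46646 CPM at 1.5 h and 38078 to 40795 CPM at 0 h, so every 1.5 h library lay above every 0 h library. Under ERCC scaling the median was -0.33, and 6 fell (0 without replicate 1 at 0 h, and 31 without replicate 3). RPL4 rose by 0.24 and RPS6 by 0.25 under TMM scaling, while under ERCC scaling their changes were -0.30 and -0.29 and did not pass. RPL4 and RPS6 were chosen after their values were seen. Of 78 nuclear genes of oxidative phosphorylation 21 rose and 0 fell under TMM scaling, with a median of 0.15 (39 rises without replicate 1 at 0 h, and 7 without NAT10-KD 1.5 h replicate 1). The lowest p in that list under ERCC scaling belonged to NDUFV3, a subunit of complex I left at 63.3 ± 6.9%.

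Actin cytoskeleton and extracellular matrix genes lasted as well. Of 39 members 21 rose and 1 fell under TMM scaling, with a median of 0.23, and 15 to 28 rose with 1 library left out. Without replicate 1 at 0 h 18 rose, with a median of 0.14. The member that fell was THBS1, thrombospondin, which was left at 65.2%, 47.7% and 65.7% at 1.5 h, against 121%, 91.6% and 87.7% at 0 h. Its TMM-scaled fall did not pass without NAT10-KD 1.5 h replicates 2 or 3 (adjusted p = 0.096 and 0.0763).

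Genes encoded by mitochondrial DNA, whose transcription by the mitochondrial polymerase actinomycin D can also block, varied with the gene. Of 13 members 8 fell under ERCC scaling (4 without replicate 1 at 0 h), with a median of -0.44. Under TMM scaling 2 fell and 4 rose (3 and 6 without replicate 1 at 0 h, and 1 fall without replicate 2). MT-ND5 was left at 57.6%, 47.2% and 65.2% at 1.5 h, against 114%, 93.3% and 92.9% at 0 h, and MT-ND1 at 58.4 ± 7.6%. MT-CO2, a core subunit of cytochrome oxidase chosen after its values were seen, rose by 0.28 under TMM scaling.

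Scaled to the spike-in, 6 transcripts were higher at 1.5 h, and none met the conditions for named rises. They were SPP1, THSD7A, PAPPA2, MFAP5, NPIPB5 and NPIPB13, named after their values were seen. SPP1, the secreted phosphoprotein osteopontin (chromosome 4, 87975650 to 87983426), was at 146%, 122% and 159% of the 0 h mean in the 1.5 h libraries, against 133%, 90.9% and 75.9% in the 0 h libraries, so replicate 1 at 0 h overlapped the 1.5 h values. Its log2 change was 0.51 ± 0.20 (adjusted p = 0.0267), and 0.77 without that replicate (adjusted p = 0.00311). The call was lost without replicate 2 or 3 at 0 h and without replicate 1 or 3 at 1.5 h (adjusted p = 0.0725 to 0.141). THSD7A, PAPPA2 and MFAP5, whose changes were 0.56, 0.67 and 0.79, lost the call in 5, 5 and 4 of the 6 fits with 1 library left out. MFAP5, a microfibril protein, rested on 46, 44 and 43 counts at 1.5 h and 19, 13 and 25 counts at 0 h. NPIPB5 and NPIPB13 belong to a family of near-identical copies and are uncertain. NPIPB13 was at 426%, 113% and 747% at 1.5 h, against 112%, 85.4% and 103% at 0 h, and NPIPB5 lost the call without NAT10-KD 1.5 h replicate 3 (adjusted p = 0.361).

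Relative to the typical transcript, 8 transcripts rose furthest. SPP1 stood at 318, 325 and 317 CPM at 1.5 h, against 171, 152 and 136 CPM at 0 h, a log2 change of 1.07 ± 0.11 (adjusted p = 5.69e-07) and 1.16 without replicate 1 at 0 h. IGFBP5, a binding protein of insulin-like growth factors (chromosome 2, 216672105 to 216695525), stood at 21.1, 20.2 and 19.9 CPM at 1.5 h, against 9.95, 10.6 and 10.9 CPM at 0 h. ANXA1, a phospholipid-binding annexin (chromosome 9, 73151757 to 73170393), stood at 573, 509 and 588 CPM at 1.5 h, against 357, 303 and 296 CPM at 0 h. In each of these the groups did not overlap. TAC1, the precursor of substance P, averaged 20.1 ± 2.34 CPM at 1.5 h and 11.3 ± 0.961 CPM at 0 h. NRCAM, a neuronal adhesion molecule, averaged 18.3 ± 1.64 CPM at 1.5 h and 10.1 ± 0.836 CPM at 0 h (SD, n = 3 each). THSD7A and GARIN1B rose by 1.10 and 0.75, and NPIPB5, one of the near-identical family, by 1.30. Under ERCC scaling IGFBP5, NRCAM, TAC1, ANXA1 and GARIN1B did not pass (adjusted p = 0.0713 to 0.338), but ANXA1 did without replicate 1 at 0 h (adjusted p = 0.0459).

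**Figure D4:**
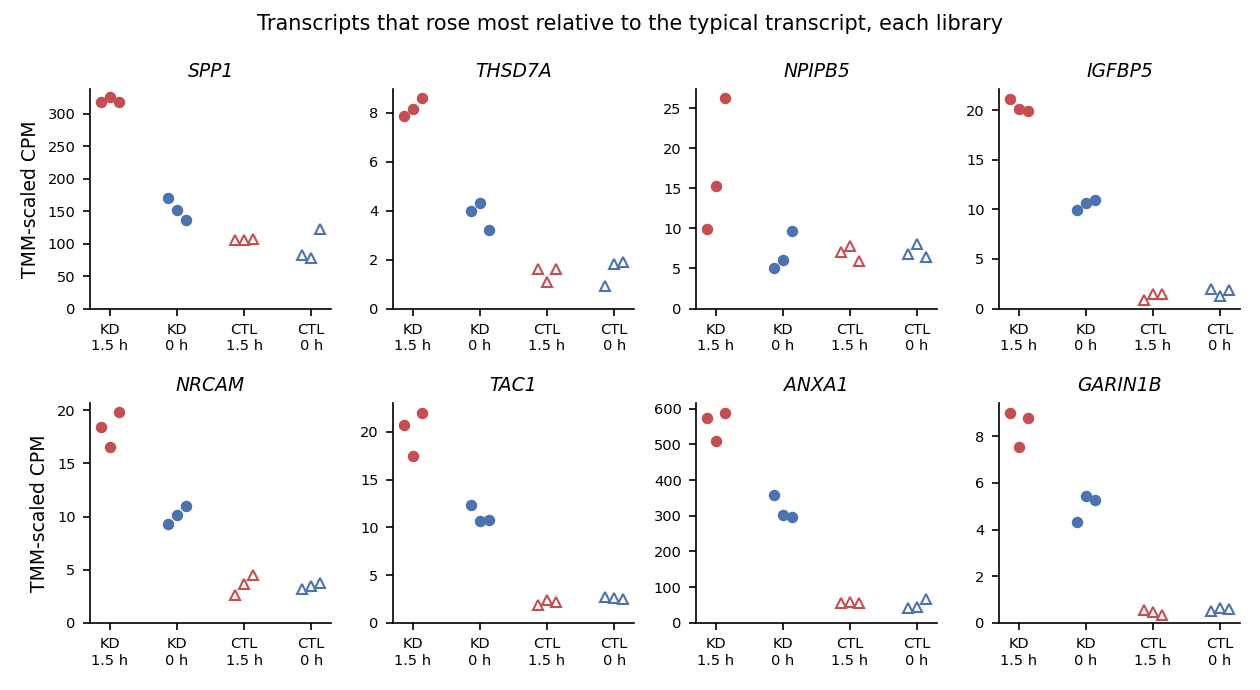
TMM-scaled CPM (vertical axis, from 0) of the 8 largest relative rises in each library of NAT10-KD 1.5 h, NAT10-KD 0 h, CTL 1.5 h and CTL 0 h, with 1 point per library. SPP1 lies at 317 to 325 CPM in NAT10-KD 1.5 h and at 136 to 171 CPM in NAT10-KD 0 h, and in all 8 panels the NAT10-KD 1.5 h points lie above the CTL points. In every panel but that of NPIPB5 the NAT10-KD 0 h points already lie above those of CTL 0 h. For ANXA1 they lie at 296 to 357 CPM, against 42.3 to 66.0 CPM in CTL 0 h.

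Transcripts with few exons were more often among the early falls. Among 13796 protein-coding genes, 27.6% of the 283 with a single exon and 26.0% of the 585 with 2 exons fell under TMM scaling. The share was 12.6% for 3 to 5 exons, 6.93% for 6 to 10 and 6.08% for 11 or more. The median changes in the same order were -0.23, -0.20, -0.01, 0.05 and 0.06. Without replicate 1 at 0 h the shares were 31.8%, 29.6%, 15.1%, 10.3% and 9.90%, and with the GC curve the first class had 34.6% and the last 10.9%. Under ERCC scaling the median single-exon transcript was left at 58.0% and the median transcript of 11 or more exons at 71.9%. Transcripts of few exons were also scarcer, with a median of 4.77 CPM for a single exon and 33.8 CPM for 11 or more. Within the second of 5 level classes, from lowest to highest, 37.3% of genes with 1 or 2 exons and 9.71% of genes with 3 or more fell, and within the fourth 31.2% and 8.55%. Within the highest class the shares were 12.5% of the 40 genes with 1 or 2 exons and 5.52% of the others, and the medians without replicate 1 at 0 h were 0.11 for both. HPS6, MARS2, DDX28, IRF2BP1 and PLPP6, of the 16 largest falls, and SOX4 have a single exon. By gene type, long intergenic noncoding RNAs had a median ERCC-scaled change of -0.63, antisense RNAs -0.61, protein-coding genes -0.50 and processed pseudogenes -0.32. Without replicate 1 at 0 h the medians in the same order were -0.44, -0.45, -0.36 and -0.18. The shares called lower under ERCC scaling did not follow that order, at 38.7%, 34.7%, 51.2% and 9.22%. Protein-coding genes had a median level of 21.0 CPM, and the other types 1.16, 1.07 and 0.824 CPM. These are descriptions over genes, which are not independent replicates.

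**Figure D5:**
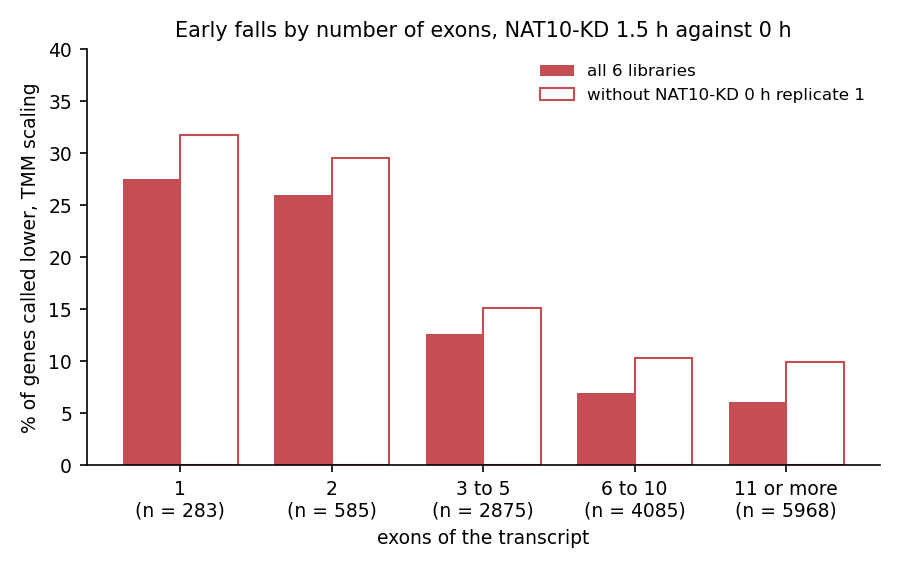
Share of protein-coding genes called lower in NAT10-KD 1.5 h than in NAT10-KD 0 h under TMM scaling (vertical axis, from 0) by number of exons, with and without NAT10-KD 0 h replicate 1. The share runs from 27.6% for 1 exon to 6.08% for 11 or more exons with all 6 libraries.

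The same interval in CTL cells was set against these changes. Under TMM scaling the difference of the log2 changes (NAT10-KD minus CTL) passed for 206 genes, 10 lower (0.0597%) and 196 higher (1.17%), and without replicate 1 at 0 h for 293 lower (1.72%) and 733 higher (4.29%). Under ERCC scaling 4 (0.0239%) were higher, and without that replicate 38 (0.223%) higher and 1 (0.00586%) lower. The CTL cells had 12501 genes lower (74.6%) and 2 higher (0.0119%) under ERCC scaling, and 2553 lower (15.2%) and 1883 higher (11.2%) under TMM scaling. Of 20 named genes that passed under TMM scaling, 8 did so with any 1 of the 6 knockdown libraries left out (SOX2, MYC, SESN2, SPP1, IGFBP5, TAC1, FZD7 and AURKA), and the other 12 lost the call in at least 1 such fit. MYC, a driver of growth and division, stood at 11.1, 10.9 and 10.3 CPM in NAT10-KD 1.5 h, against 9.41, 10.05 and 8.44 CPM in NAT10-KD 0 h, but at 4.83, 5.03 and 4.14 CPM in CTL 1.5 h, against 10.3, 8.61 and 8.73 CPM in CTL 0 h. The difference was 1.20 (adjusted p = 0.000575). SOX2 stood at 40.2, 34.0 and 41.1 CPM in NAT10-KD 1.5 h, against 48.7, 41.7 and 41.6 CPM in NAT10-KD 0 h, but at 24.5, 29.1 and 26.7 CPM in CTL 1.5 h, against 61.8, 60.4 and 62.5 CPM in CTL 0 h. The difference was 1.005 (adjusted p = 9.09e-05). For SESN2 and DUSP5, which fell in both genotypes, the differences were 1.514 (adjusted p = 0.00466) and 1.06 (adjusted p = 0.0153), and that of DUSP5 was lost without NAT10-KD 1.5 h replicate 1 (adjusted p = 0.0811). Of MYC, SOX2, SESN2 and DUSP5, SESN2 also passed under ERCC scaling with all libraries (adjusted p = 0.00784). Without replicate 1 at 0 h all 4 passed under that scaling, with differences of 1.49 for MYC (adjusted p = 0.00586), 1.39 for SOX2 (adjusted p = 0.00294), 1.62 for SESN2 (adjusted p = 0.00294) and 1.29 for DUSP5 (adjusted p = 0.0445).

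Mitochondrially encoded transcripts lost less in knockdown cells than in CTL cells on the TMM scale. The difference was higher for 10 of the 13 and lower for 0, against 1.17% and 0.0597% of all genes. In CTL all 13 fell under TMM scaling, with a median of -0.44, where the knockdown median was 0.10. MT-CO2 differed by 0.62 and MT-CYB, the cytochrome b of complex III, by 0.47, both chosen after their values were seen, and MT-ND1 by 0.41 (adjusted p = 0.044). TRMT10C, VIRMA and NAT10 fell further in knockdown cells on the TMM scale, with differences of -0.49 (adjusted p = 0.0321), -0.39 (adjusted p = 0.0486) and -0.37 (adjusted p = 0.0378). With 1 library left out, the call was lost in 4 of 6 fits for MT-ND1, 3 for TRMT10C, 4 for VIRMA and 5 for NAT10 (adjusted p up to 0.11, 0.0992, 0.162 and 0.125). Under ERCC scaling with all libraries none of the genes named in this paragraph passed the test of the difference. Leaving out replicate 1 at 0 h, 3 of the 13 mitochondrially encoded transcripts were higher, against 0.223% of all genes, and MT-ND1, TRMT10C, VIRMA and NAT10 did not pass.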

How the data were processed

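Raw counts of reads for genes and ERCC transcripts in 18 libraries were used as the authors deposited them, with totals of 15037492 to 15519197 per library. Per the submitters' processing notes, the tools were featureCounts 2.0.3, SAMtools 1.12, HISAT2 2.2.1 and fastp 0.21.1, with the build hg38. Annotation release and strand setting: not given in the sources used here. Knockdown half-lives in hours came from the authors' deposited table, method not stated, and 18 other columns of per-sample values were not used. Counts of 16760 genes that passed filterByExpr (45100 removed) were tested in one fit of 6 groups with edgeR 4.0.16 (quasi-likelihood F test, Benjamini-Hochberg adjusted p under 0.05; R 4.3.3, limma 3.58.1), scaled to summed ERCC counts and, apart, by TMM. SE is the log2 change divided by the square root of F. The pipeline was tested on simulated data. Gene annotation and windows came from GENCODE release 29 (GRCh38), and 98.5% of genes had a GC content.

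Named genes were 8 chosen whatever their values, the 16 largest falls and up to 8 largest rises under ERCC scaling, of which 0 met the conditions, and the 8 largest rises under TMM scaling (at least 5 CPM, groups not overlapping), and 3 members with the smallest p in each of the 24 lists described. The members and lists were chosen with earlier results of these data known. Alternatives were DESeq2 1.42.0, other scalings, no filter, a fit to 6 libraries, a change of at least 1.5-fold, a replicate block, each library left out, and, added after seeing the data, a GC curve and TMM over ERCC transcripts. Leave-one-out fits keep the spread of all groups. Figures and summaries used Python 3.11.15, pandas 2.3.3 and scipy 1.17.1.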

Additional observations from a re-analysis of the deposited data

Results flagged for a closer look

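For 20 named genes the log2 change in NAT10-KD cells differed from that in CTL cells under TMM scaling by the interaction term of the same fit (edgeR quasi-likelihood test, adjusted p under 0.05). Values are the NAT10-KD change minus the CTL change. The difference was above 0 for SOX2 at 1.005 (adjusted p = 9.09e-05), MYC at 1.20 (0.000575), CHAC1 at 1.57 (0.0407), SESN2 at 1.514 (0.00466), DUSP5 at 1.06 (0.0153), MCL1 at 0.39 (0.0168) and TENT5B at 0.68 (0.0368). CHAC1 was near the floor in CTL 1.5 h, at 0.27, 0.41 and 0.27 CPM.

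It was also above 0 for SPP1 at 0.90 (adjusted p = 0.00276), IGFBP5 at 1.43 (0.00745), TAC1 at 1.09 (0.00996), ANXA1 at 0.66 (0.0392), THSD7A at 1.19 (0.0477), THBS1 at 0.49 (0.0142) and FZD7 at 0.45 (0.00113). The other 3 above 0 were AURKA at 0.59 (adjusted p = 0.00478), MT-ND1 at 0.41 (0.044) and GABPB1-AS1 at 0.58 (0.0452). Below 0 were NAT10 at -0.37 (0.0378), TRMT10C at -0.49 (0.0321) and VIRMA at -0.39 (0.0486). Under ERCC scaling with all libraries SESN2 passed, and the other 19 did not. Without NAT10-KD 0 h replicate 1, SESN2 and SOX2 (adjusted p = 0.00294 each), MYC (0.00586), SPP1 (0.00675), IGFBP5 (0.0153), TAC1 (0.0238), DUSP5 (0.0445) and ANXA1 (0.0463) passed under that scaling.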

How the results depend on the processing

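With 1 library left out, genes lower under ERCC scaling numbered 2065 to 10151 (7941 with all) and genes higher 2 to 12 (6). Under TMM scaling 932 to 1833 were lower (1349) and 847 to 2952 higher (1500), and the summed ratio was 68.5% to 81.8%. A fit to the 6 libraries gave 4504 lower and 2 higher under ERCC scaling, and 593 and 248 under TMM scaling, with fewer samples to estimate the spread. Against a change of at least 1.5-fold the counts were 221 and 1 (ERCC) and 7 and 1 (TMM). The GC curve gave 2163 lower and 3150 higher under TMM scaling, and without NAT10-KD 0 h replicate 1 it gave 3577 higher (TMM) and 2256 lower (ERCC). DESeq2 called 3 higher under ERCC scaling. For the other counts the cause was not tested. Exchanging the scalings exchanges 7941 and 6 for 1349 and 1500. It also changes the sign for many genes, since 16238 of 16760 were below 0 under ERCC scaling and 7458 under TMM scaling. Examples are POU5F1 (-0.32 under ERCC scaling, 0.20 under TMM), ANP32B (-0.28 and 0.26), RPS27L (0.0654 under TMM), RPL39 (0.0896), RPLP2 (0.0766) and UQCRFS1 (0.00554, close to no change). POU5F1 and ANP32B did not pass under ERCC scaling. A sign under TMM scaling sets a gene against the typical transcript and is not by itself an increase. Whether the replicate numbers pair the libraries is not settled by the counts. Deviations of equal numbers correlated at 0.286, 0.455 and -0.250, and those of unequal numbers at -0.539 to 0.460. Each deviation is from the mean of its own 3 libraries, so these correlations are not independent and cannot decide it. With the replicate block 7276 were lower and 6 higher under ERCC scaling, and 1327 and 1468 under TMM scaling. Of the 90 named genes called under ERCC scaling, 80 were called without NAT10-KD 0 h replicate 1, and 80 of 80 under TMM scaling. The small ERCC totals limit the ERCC-scaled values.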
